A study of Rattus norvegicus with 20 samples.

Results

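The difference between the ventral and the dorsal subiculum in their response to a seizure-inducing preconditioning protocol was examined gene by gene. All 20 libraries of the series entered the comparison, as 4 groups of 5: dorsal control, ventral control, dorsal preconditioning and ventral preconditioning. The animals were wild-type Wistar rats aged 3 months, and the treated ones were sampled 24 hours after the protocol, which used electric stimulation of the perforant pathway. Each library came from laser-microdissected tissue and was read as counts of polyadenylated RNA per gene. Of 32883 gene IDs in the table, 14087 had enough counts to be tested.

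The subiculum is the main output field of the hippocampus. It receives input from field CA1 and, through the perforant pathway, from the entorhinal cortex. Its dorsal part is best known for links with cortical networks of spatial memory, and its ventral part for links with the hypothalamus, amygdala and prefrontal cortex and with stress and emotion. Preconditioning is the name for a mild insult given ahead of a severe one. Strong neuronal firing is known to switch on gene programmes in neurons and glia, and some of these last for a day or longer.

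The response of a region is the log2 ratio of its preconditioned to its control libraries. The difference of responses is the ventral response minus the dorsal one. It equals the change in the ventral-to-dorsal ratio between control and preconditioned animals, and that ratio can be read within each pair of same-numbered dorsal and ventral libraries. There were 5 such pairs per treatment. The labels do not say whether the libraries of a pair came from one rat. They also do not say that replicates were separate animals. The p-values of the fit with the pair as block therefore measure the spread of this ratio between these pairs of libraries.

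Total counts ran from 3087146 in ventral control 1 to 20463678 in ventral control 4. The log2 ventral-to-dorsal ratio of total counts was -0.57 ± 1.45 (SD, n = 5) in control pairs and 0.056 ± 0.651 (SD, n = 5) in preconditioned pairs, with no detectable difference (two-sided exact permutation test, p = 0.421). Dorsal control 4, ventral control 2 and dorsal preconditioning 2 stood apart from their groups on principal components of log2 expression, and counts without their 3 pairs are given below. The ventral preconditioned group was itself split on the second component. Ventral preconditioning 2 and 5 scored 0.45 and 2.13 there, and ventral preconditioning 1, 3 and 4 scored -24.7, -36.3 and -23.0. Ventral controls scored 7.47 to 43.2 on this component. Ventral preconditioning 2 and 5 also had the most counts of their group, 16203907 and 19291639, against 7878493 to 9290539 in the rest. Whether depth plays a part in the split was not tested. All pairs of libraries within a group differed by more than counting noise, with a chi-square per degree of freedom of 3.37 to 60.9. The highest value was between ventral preconditioning 3 and 5. No gene ID matched the RefSeq gene table used for names, so genes are given by Ensembl ID, their functions are not stated, and the tissue was not checked against marker genes. In such bulk tissue, fewer cells of a type and less RNA per cell cannot be told apart.

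The responses of the regions differed for 62 of the 14087 genes at an adjusted p-value of 0.05 (edgeR quasi-likelihood test with the pair as block, Benjamini-Hochberg adjustment), which is 0.44% of the genes tested. The difference was positive, meaning a higher ventral than dorsal response, for 46 genes (0.327%) and negative for 16 genes (0.114%). Over all genes tested the median difference was -0.01 on the log2 scale, where the scaling of the libraries sets the bulk of genes near 0. The 46 positive differences ranged from 0.59 to 2.61 with a median of 1.04, and 26 of them were at least 2-fold. The largest belonged to a gene of low counts (mean count 30.4, mean of 0.50 CPM in ventral controls). The 16 negative differences ranged from -2.28 to -0.61 with a median of -1.08, and 10 were at least 2-fold. The lowest also belonged to a gene of low counts (mean count 12.35, SE 0.49). Among all genes tested, 441 (3.13%) had an estimated difference of at least 2-fold in either direction. At an unadjusted p-value of 0.05 there were 1609 genes.

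The number of genes called depended on the pairing and on the test. Without the pair as block 11 genes passed, all among the 62 (0.0781% of those tested), while DESeq2 called 175 genes, including all 62, and limma-voom with sample quality weights called 189, including 60. With control pairs 2 and 4 and preconditioning pair 2 left out, 49 genes passed and 32 of them were among the 62. All 62 genes kept the sign of the difference in every one of these fits. These fits share all or most libraries with the one that picked the genes, so the kept signs are not a separate result.

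**Figure D1:**
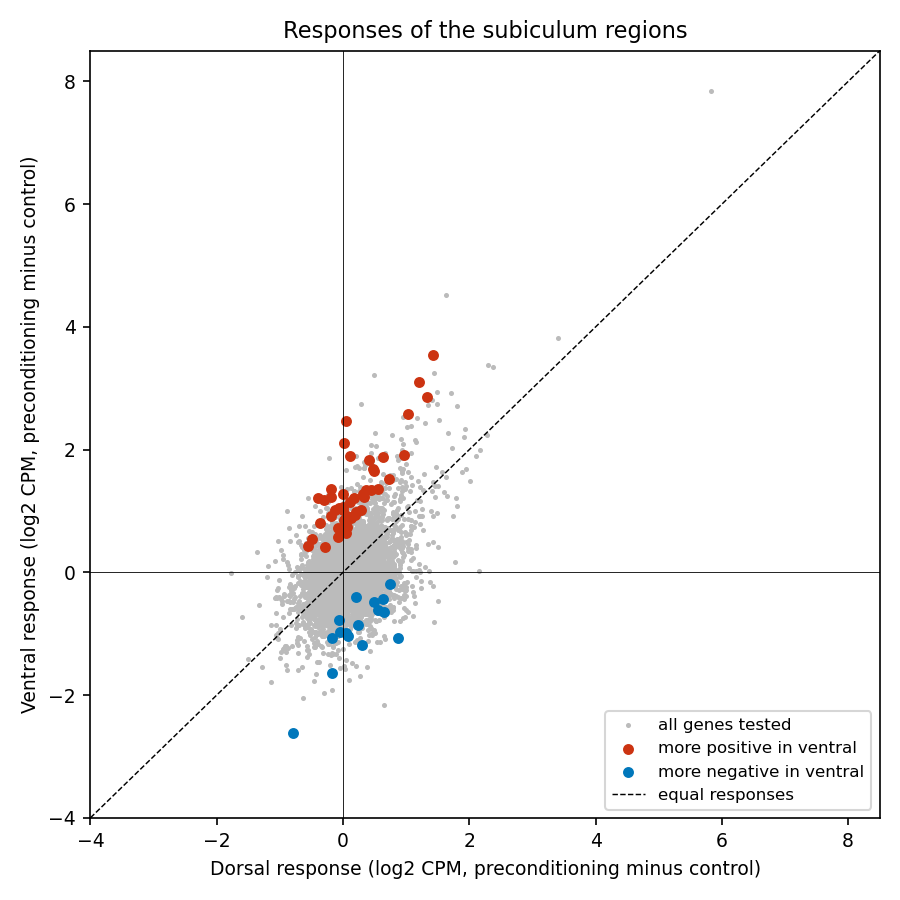
Each point is a gene; the x axis is its dorsal and the y axis its ventral response, in mean log2 CPM of preconditioned minus control libraries (5 per group). Red points are the 46 genes with a more positive and blue points the 16 with a more negative ventral response. The red points lie above 0 on the y axis and the blue ones below it. On the x axis, 37 red and 10 blue points lie within 0.5 of 0.

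The 46 positive genes had a ventral response above 0 in every case, from 0.41 to 3.54 with a median of 1.19 (differences of mean log2 CPM). Their dorsal responses lay between -0.55 and 1.42, with a median of 0.07. The dorsal response was smaller than 0.5 in size for 37 of the 46 (80.4%, below the 92.8% of all genes tested), and it was at least 1 for 4 of them. It was above 0 for 30 genes and below 0 for 16. For most of these genes the ventral mean was higher after preconditioning and the dorsal mean was close to its control level, and for a few both means were higher, the ventral one by more. Over all genes tested, 92.8% had a dorsal response smaller than 0.5 in size and 88% had such a ventral response.

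The 16 negative genes had a ventral response below 0 in every case, from -2.62 to -0.19 with a median of -0.91. Their dorsal responses lay between -0.79 and 0.87, with a median of 0.22, and 11 of the 16 were above 0. The dorsal response was smaller than 0.5 in size for 10 of the 16 (62.5%), below the 92.8% of all genes tested. The responses had opposite signs for 11 of these 16 genes (68.8%), against 16 of the 46 positive genes (34.8%) and 39.7% of all genes tested. The ventral response was the larger in size for 45 of the 46 positive and 12 of the 16 negative genes, and for 58% of all genes tested. These signs and sizes enter the difference by which the genes were called, so they describe its make-up and are not a separate result.

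ENSRNOG00000023633 had the smallest p-value of all genes. Its normalised counts in dorsal controls 1 to 5 were 5.31, 6.86, 10.2, 9.23 and 9.65 CPM, and in ventral controls 1 to 5 they were 2.17, 2.70, 2.40, 5.86 and 3.42 CPM. After preconditioning they were 27.5, 20.9, 23.2, 17.9 and 20.6 CPM in the dorsal libraries and 35.7, 45.2, 45.7, 33.7 and 31.0 CPM in the ventral ones. The treated libraries lay above the controls in each region without overlap. The order of the regions turned round with treatment: ventral was the lower library in all 5 control pairs and the higher one in all 5 preconditioned pairs. The log2 ventral-to-dorsal ratio lay between -2.02 and -0.64 in control pairs and between 0.37 and 1.11 in preconditioned pairs. Dorsal means were 8.26 ± 2.09 CPM in controls and 22.0 ± 3.60 CPM after preconditioning. Ventral means were 3.31 ± 1.50 and 38.3 ± 6.79 CPM (all SD, n = 5 each), and the log2 difference of responses was 2.09 (SE 0.24, adjusted p = 0.00103, edgeR).

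ENSRNOG00000021046 had nearly the same level in both regions of control animals. Dorsal controls 1 to 5 measured 12.4, 13.8, 11.1, 12.7 and 13.5 CPM, and ventral controls 1 to 5 measured 16.7, 11.3, 9.11, 11.5 and 13.8 CPM. Dorsal preconditioned libraries were close to these levels, at 12.1, 12.4, 10.2, 10.6 and 10.1 CPM, while the ventral ones measured 45.0, 26.3, 33.1, 33.9 and 24.5 CPM. Every ventral preconditioned library was above every library of the other 3 groups. The ventral mean went from 12.5 ± 2.90 to 32.6 ± 8.07 CPM, and the dorsal mean from 12.7 ± 1.06 to 11.1 ± 1.08 CPM (SD, n = 5 each). Within pairs, the log2 ventral-to-dorsal ratio lay between -0.29 and 0.42 in controls and between 1.08 and 1.88 after preconditioning, and the log2 difference of responses was 1.57 (SE 0.20, adjusted p = 0.00226, edgeR).

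ENSRNOG00000016388 had the smallest p-value among the negative genes. Dorsal controls 1 to 5 measured 43.5, 50.6, 58.0, 41.1 and 72.5 CPM, and ventral controls 1 to 5 measured 122, 126, 146, 114 and 111 CPM. After preconditioning the dorsal libraries measured 82.3, 84.1, 81.4, 71.0 and 84.9 CPM and the ventral ones 79.9, 101, 80.9, 92.4 and 103 CPM. The regions did not overlap in controls and did overlap after preconditioning. The dorsal mean was 53.1 ± 12.7 CPM in controls and 80.7 ± 5.60 CPM after preconditioning, and the ventral mean was 124 ± 13.7 and 91.3 ± 10.7 CPM (all SD, n = 5 each). The dorsal mean was thus higher and the ventral mean lower after preconditioning. The log2 ventral-to-dorsal ratio lay between 0.61 and 1.48 in control pairs and between -0.04 and 0.38 in preconditioned pairs. The log2 difference of responses was -1.06 (SE 0.16, adjusted p = 0.00636, edgeR).

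ENSRNOG00000008951 was likewise higher in the ventral region of controls, and the regions overlapped after preconditioning. Dorsal controls 1 to 5 measured 10.1, 4.62, 11.1, 7.21 and 7.36 CPM, and ventral controls 1 to 5 measured 28.8, 21.7, 32.9, 25.8 and 24.5 CPM. After preconditioning the ventral libraries measured 13.5, 14.6, 6.73, 11.7 and 13.0 CPM, all below the ventral controls. The dorsal ones measured 7.73, 22.2, 7.29, 6.19 and 10.1 CPM, where dorsal preconditioning 2 was the high one. The ventral mean went from 26.7 ± 4.30 to 11.9 ± 3.07 CPM and the dorsal mean from 8.08 ± 2.58 to 10.7 ± 6.57 CPM (SD, n = 5 each). The log2 ventral-to-dorsal ratio lay between 1.50 and 2.19 in control pairs and between -0.60 and 0.91 in preconditioned pairs. The log2 difference of responses was -1.50 (SE 0.26, adjusted p = 0.0117, edgeR). Without preconditioning pair 2 it was -1.23 (adjusted p = 0.0220). It was no longer called without the block (adjusted p = 0.212) or with control pairs 2 and 4 and preconditioning pair 2 left out together (adjusted p = 0.0740).

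**Figure D2:**
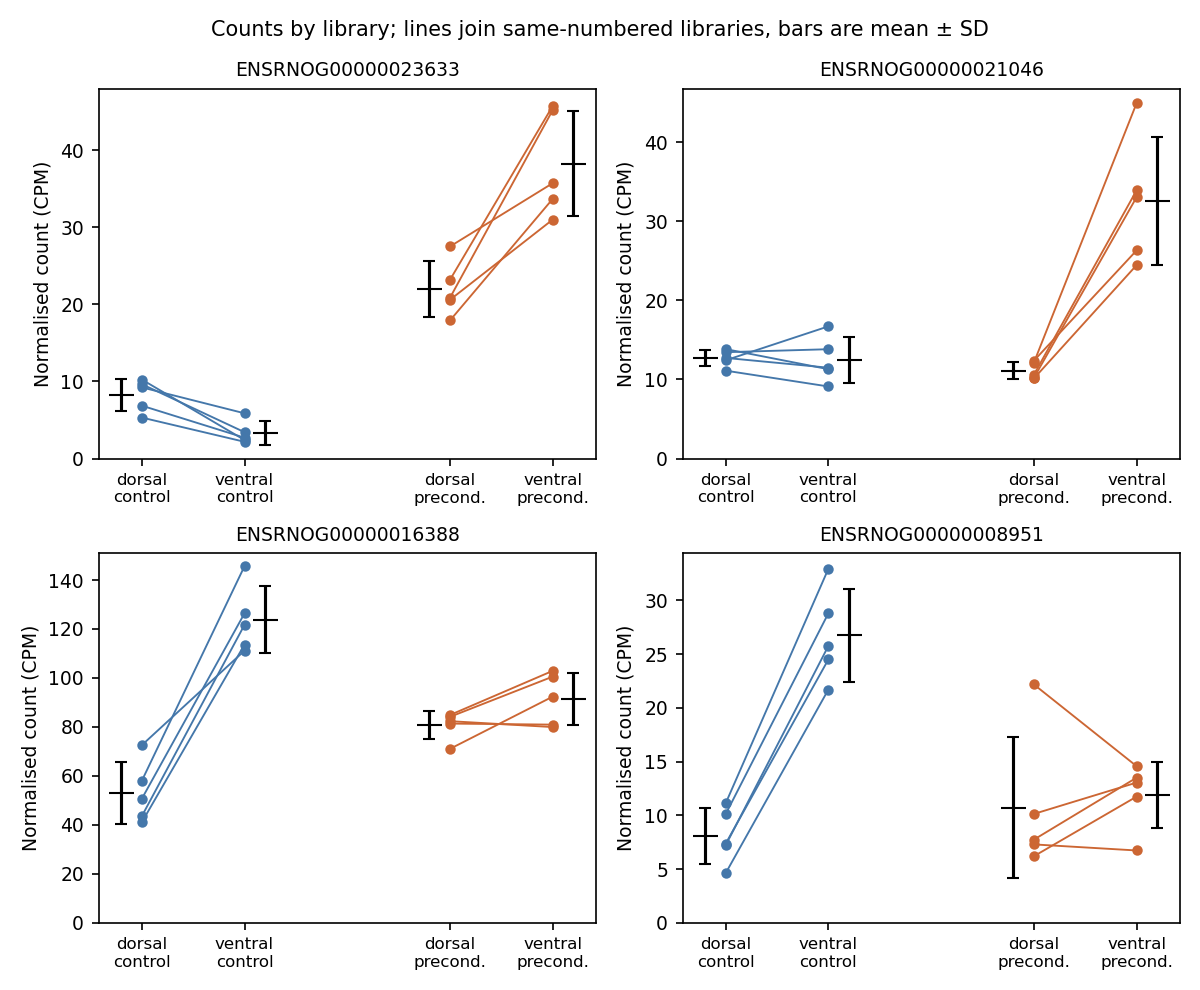
Normalised counts (CPM, linear axes from 0) of 2 genes with a positive (top) and 2 with a negative (bottom) difference of responses; points are libraries, lines join the dorsal and ventral library of a pair, and black bars are mean ± SD of 5 libraries. In the top panels the lines rise from dorsal to ventral in all 5 preconditioned pairs. In the bottom panels they rise in all 5 control pairs and less, or fall, after preconditioning.

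The pattern of the whole set was then read within each pair. For the 46 positive genes, the median log2 ventral-to-dorsal ratio was -0.47, -0.60, -0.30, -0.54 and -0.38 in control pairs 1 to 5. It was 0.63, 0.65, 0.66, 0.42 and 0.26 in preconditioned pairs 1 to 5. For the 16 negative genes the medians were 1.16, 1.11, 0.88, 0.99 and 0.90 in control pairs and -0.06, -0.25, -0.06, 0.01 and 0.21 in preconditioned pairs. The genes were called on this change in ratio, which fixes the separation of control from preconditioned medians, so the medians show only how the pairs vary within a treatment. Preconditioning pair 5 lay nearest to the control pairs in both sets. Over all genes tested the medians lay between -0.01 and 0.02 in all 10 pairs. The scaling of the libraries sets the bulk of genes near 0, so these medians are not a separate result.

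The ratios of preconditioned and control pairs did not overlap for 43 of the 46 positive and 12 of the 16 negative genes, and for 346 genes or 2.46% of all those tested, 183 higher (1.3%) and 163 lower (1.16%) after preconditioning. The called genes were chosen on this contrast, so nothing is read from their share. Most of the 346 genes were not called: 55 of them were among the 62. The counts over all tested genes were thus nearly even between directions, whereas the called genes were mostly positive.

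**Figure D3:**
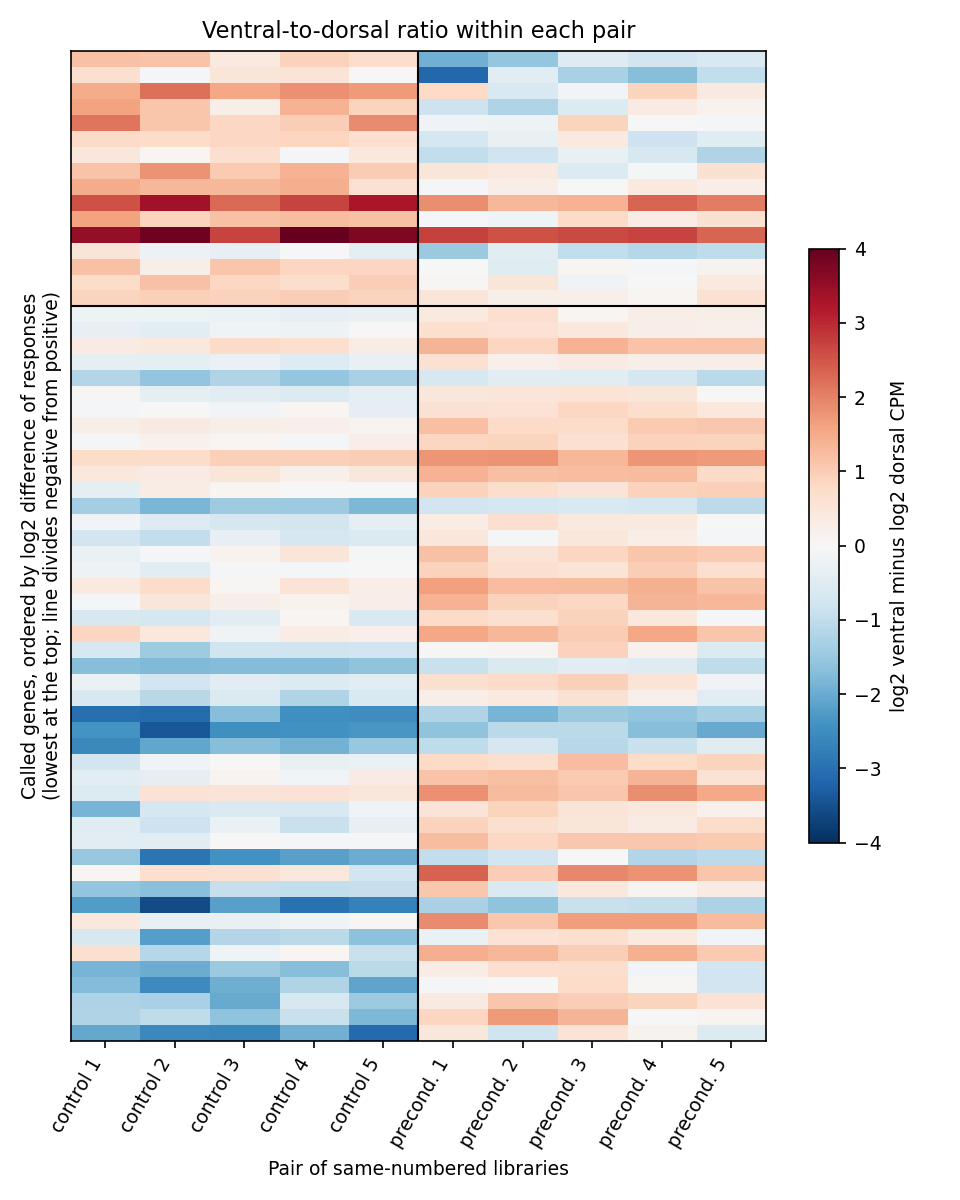
Rows are the 62 called genes ordered by the log2 difference of responses, columns are the 10 pairs of same-numbered libraries, and colour is log2 ventral minus log2 dorsal CPM in that pair (red, ventral higher; blue, dorsal higher). Above the horizontal line (16 negative genes) the colours shift toward blue between control and preconditioned pairs, and below it (46 positive genes) toward red. The ventral library was higher in all 10 pairs for 3 negative and 5 positive genes. It was lower in all 10 for 8 positive genes.

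The change in ratio can widen, close or turn round a regional gap. In controls, the mean level was lower in the ventral than in the dorsal region for 34 of the 46 positive genes (73.9%, against 47.9% of all genes tested). After preconditioning it was lower for 10 of the 46. The gap changed sign for 24 of the 46 (52.2%, against 22.5% of all genes tested). It was smaller in size after preconditioning for 21 genes (45.7%, below the 59.3% of all genes tested), and all 21 had lower ventral levels in controls. Ventral preconditioned libraries were the group with the highest mean log2 level for 32 of the 46 genes (69.6%, against 25.4% of all genes tested), and ventral controls the lowest group for 32 (69.6%, against 26.4%). For 11 of the 46 genes dorsal controls were the highest group (23.9%, against 25.7%). The ventral library was the lower one in all 10 pairs for 8 of the 46 genes and the higher one in all 10 for 5.

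Among the 16 negative genes, 15 had a higher mean level in the ventral than in the dorsal region of controls (93.8%, against 52.1% of all genes tested). The gap was smaller in size after preconditioning for 12 of the 16 (75%, against 59.3%), and it changed sign for 6 (37.5%, against 22.5%). Its median size was 0.99 in controls and 0.35 after preconditioning on the log2 scale. For the positive genes it was 0.49 in controls and 0.79 after preconditioning, and over all genes tested 0.29 and 0.23. Ventral controls were the highest group for 14 of the 16 negative genes (87.5%, against 29.5% of all genes tested). The ratios in both treatments are part of the contrast by which the genes were called, so these shares are a description and were not tested.

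**Figure D4:**
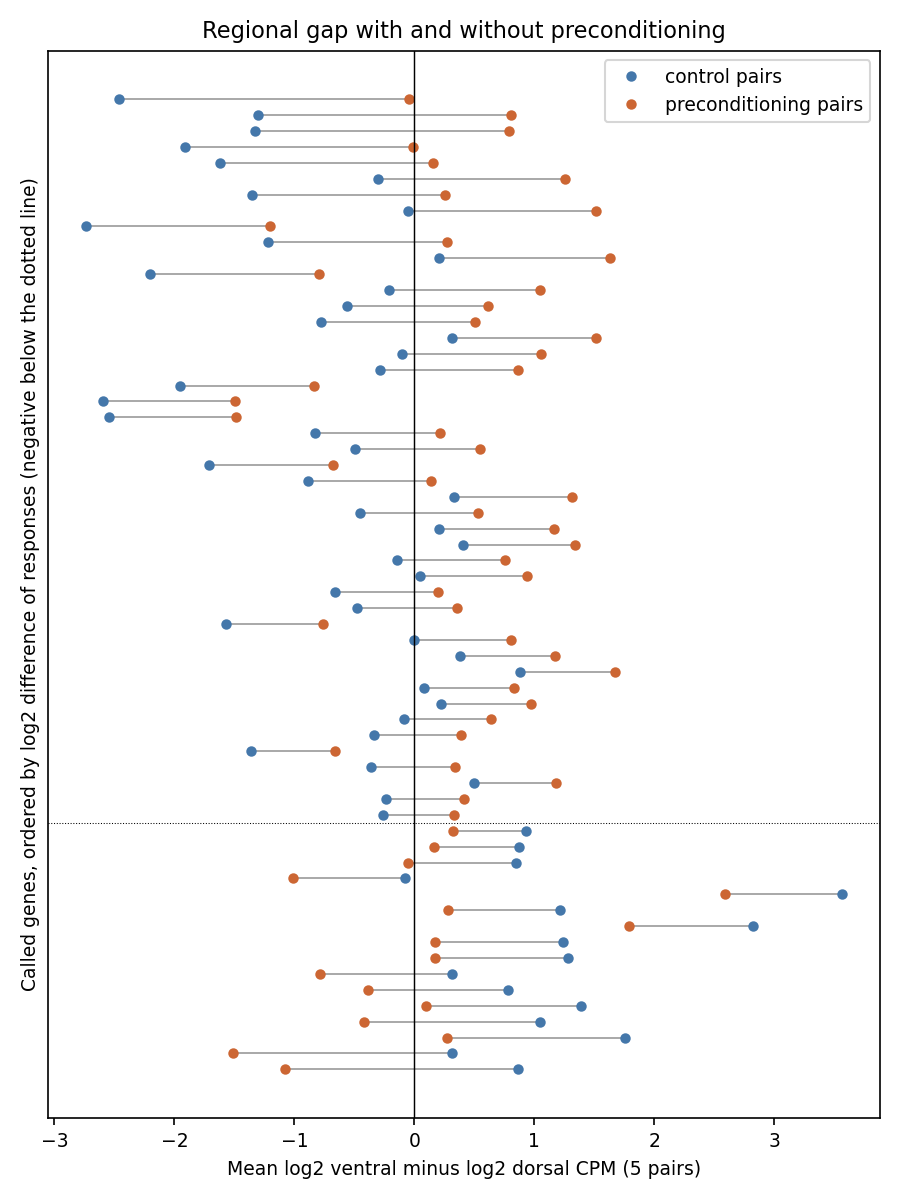
Each row is 1 of the 62 called genes; the x axis is the mean log2 ventral minus log2 dorsal CPM over 5 control pairs (blue) and 5 preconditioned pairs (orange), joined by a line. Above the dotted line (46 positive genes) the orange point is to the right and 24 lines cross 0; below it (16 negative genes) the orange point is to the left, and 15 of the 16 blue points lie right of 0.

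The called genes were not evenly spread over abundance. By mean count over the 20 libraries, 10 of the 4696 least abundant genes were called (0.213%), 20 of the 4695 genes of middle abundance (0.426%) and 32 of the 4696 most abundant (0.681%). Positive genes outnumbered negative ones in each class, with 6 and 4, 16 and 4, and 24 and 8 genes. The median mean count was 554 for the positive and 536 for the negative genes, against 264 over all genes tested. Smaller differences can be detected in genes with more counts, and this was not taken into account here.

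Single pairs moved the number of called genes. It was 34 without control pair 5, 25 without preconditioning pair 1, 30 without preconditioning pair 4 and 98 without preconditioning pair 5. Of the positive genes, 21 of 46 were called in all 10 fits that left out 1 pair each, and 39 were called in at least 5 of them. Of the 16 negative genes, 2 were called in all 10 fits and 5 in at least 5. These 2 were ENSRNOG00000016388 and ENSRNOG00000008951. The negative count was 5 without control pair 1, 3 without control pair 5, 3 without preconditioning pair 1 and 4 without preconditioning pair 4. All 62 genes were tested in each of the 10 fits and kept their sign there. The genes were picked on libraries that these fits mostly share, so nothing is read from the kept signs.

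**Figure D5:**
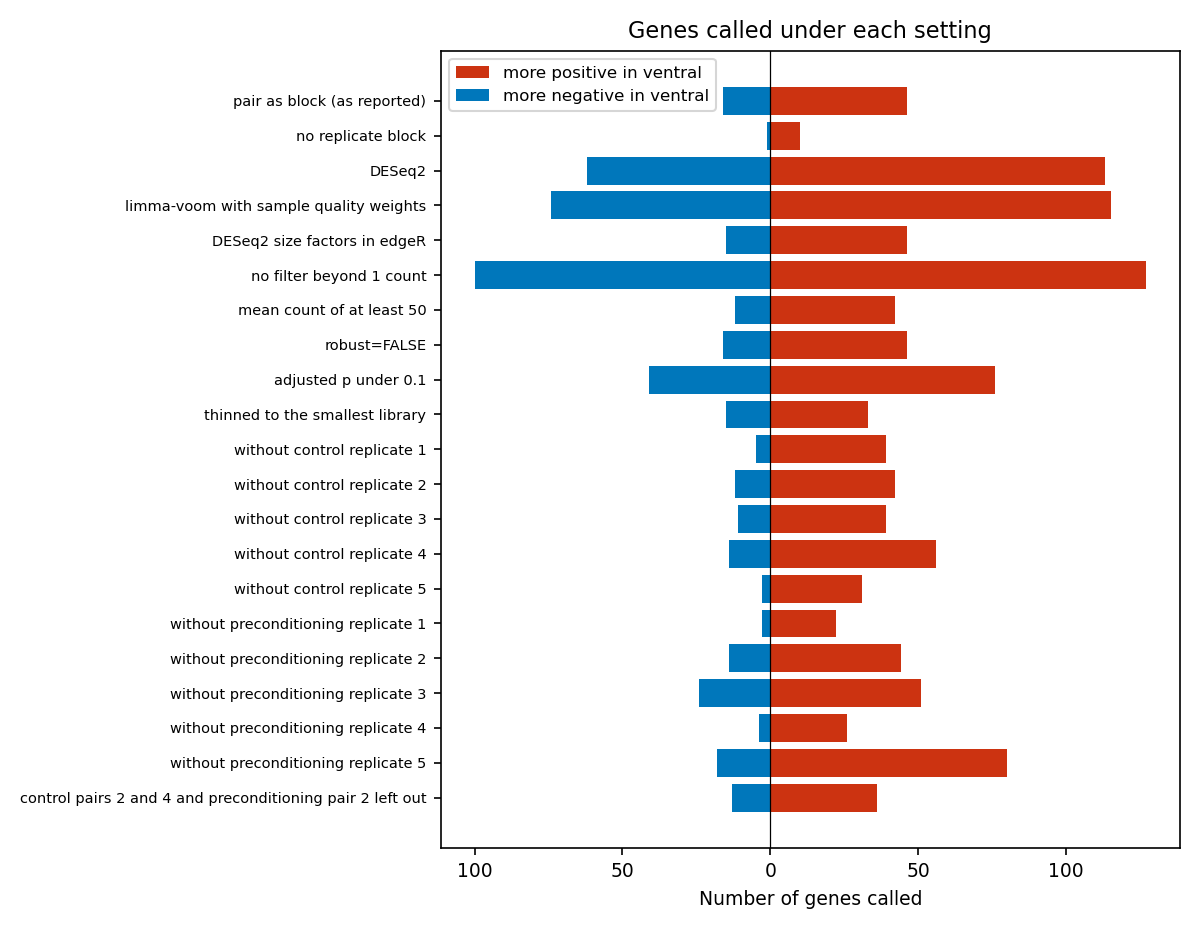
Number of genes called under each setting, with genes of more positive ventral response to the right (red) and of more negative response to the left (blue); the top bar is the fit reported here, with 46 and 16 genes. The smallest bar is the fit without the block (10 and 1) and the largest the fit with no filter beyond 1 count (127 and 100), and red exceeds blue in every bar.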

How the data were processed

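The authors deposited raw counts per Ensembl gene ID for 20 libraries. The submitters' processing notes name STAR, DESeq2 and the build Rnor_5.0, without their roles; the counting tool, annotation and use of strand are not given in the sources used here. Reads of paralogs or overlapping genes may therefore be split in ways not known here. Per the labels, libraries were made with a stranded mRNA kit. Groups and numbers came from the titles. Columns of treated libraries carry the letter e, whereas their titles carry p; number and region letter were used to match them.

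Genes were filtered (filterByExpr by group), scaled by TMM and tested in edgeR 4.0.16 (R 4.3.3; glmQLFit with robust=TRUE, then glmQLFTest) on all 20 libraries, with the 10 pairs, region and region-by-treatment as terms, leaving 8 residual degrees of freedom. P-values were adjusted over all genes tested. The SE is the size of the estimate over the square root of F. Responses, pair ratios and gaps used log2 CPM with a prior count of 2. A count of 3 equals 0.144 to 0.929 CPM, which covers counting error only. On simulated counts of 14087 genes with 200 changed 2-fold, 65.9% were recovered over 5 draws and 4.77% of calls were false. With no gene changed, 0 calls were made. These rates describe the simulated counts only and are not an estimate of the false calls among the genes called in the data. Whether they hold for libraries that stand apart from their groups, as some did here, was not tested.

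Named genes are the 2 per direction with the smallest adjusted p and a mean count of at least 20. The rule asked for symbols and more genes, and planned lists by symbol; these were dropped, since 0 of 32883 IDs matched a table of 47357 rat genes (GRCr8). The members, lists and rules were chosen with earlier results of these data known. Alternatives used DESeq2 1.42.0 and limma 3.58.1; figures used matplotlib 3.10.9.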

Additional observations from a re-analysis of the deposited data

Results flagged for a closer look

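Among 48 groups of 5 values searched with Dixon's ratio, 6 held a library or pair far from the rest. Chance would give about 2.4 if the groups were independent and normally distributed. They include component scores, genes picked from these data and ratios of the same values, so nothing is read from the number flagged. On the fourth principal component, dorsal control 4 scored -60.1 and the remaining dorsal controls 4.30 to 13.7. On the fifth, dorsal preconditioning 2 scored 35.3 and the remainder of that group -8.06 to -0.29. On the second, ventral control 2 scored 43.2 and the remaining ventral controls 7.47 to 17.4. ENSRNOG00000008951 measured 22.2 CPM in dorsal preconditioning 2, with the others between 6.19 and 10.1 CPM. ENSRNOG00000016388 measured 71.0 CPM in dorsal preconditioning 4, with the others between 81.4 and 84.9 CPM. Its log2 ventral-to-dorsal ratio was 0.61 in control pair 5, with the other control pairs between 1.32 and 1.48.

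The named genes were also listed because their responses differed between the regions by the interaction test itself. The log2 differences were 2.09 for ENSRNOG00000023633, 1.57 for ENSRNOG00000021046, -1.06 for ENSRNOG00000016388 and -1.50 for ENSRNOG00000008951. The causes were not tested.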

How the results depend on the processing

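Against 62 genes (46 positive, 16 negative), 11 passed with no replicate block (10 and 1), 175 with DESeq2 (113 and 62), 189 with limma-voom and sample quality weights (115 and 74), 227 with no filter beyond 1 count (127 and 100; 61 of the 62 among them) and 117 at an adjusted p-value under 0.1 (76 and 41). The causes were not tested. Leaving out 1 pair gave 25 to 98 genes, 22 to 80 positive and 3 to 24 negative, of which 25 to 57 were among the 62. DESeq2 size factors, a mean count of at least 50, robust=FALSE, thinning to the smallest library and leaving out control pairs 2 and 4 with preconditioning pair 2 gave 48 to 62 genes. These were not always the same genes: the thinned fit called 48, of which 38 were among the 62. Over 19 alternatives, ENSRNOG00000023633, ENSRNOG00000021046 and ENSRNOG00000016388 stayed called (highest adjusted p 0.00767, 0.0168 and 0.0418). ENSRNOG00000008951 stayed called in 17. It was lost without the block (log2 difference -1.54, adjusted p = 0.212) and without those 3 pairs (-1.08, adjusted p = 0.0740), and its log2 difference ranged from -1.66 to -1.08. No result changed sign, though all of these fits reuse libraries on which the genes were called.

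Pairing rests on the numbers in the titles. Deviations from the group means correlated within 9 of 10 same-numbered pairs at over 0.1 (0.0376 in preconditioning pair 3, up to 0.393). In 7 of 10 pairs both libraries correlated best with their own number. The exceptions were all preconditioned: pairs 2, 3 and 5. Dorsal preconditioning 2 reached 0.288 with another number, against 0.253 with its own. Ventral preconditioning 3 reached 0.258 against 0.0376, and ventral preconditioning 5 reached 0.288 against 0.141. As 1 pair did not pass 0.1 and preconditioned pairs 2, 3 and 5 held a better match outside the pair, these data do not settle whether a number marks a shared animal. Over all genes tested, the median SE was 0.193 with the block and 0.235 without it.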
